A study of Columba livia and Gallus gallus with 96 samples.

Results

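The forkhead genes FOXC1, FOXC2, FOXD1, FOXF2, FOXP1, FOXP2 and FOXP4 were taken by gene symbol, and 4 of these 7 had a feature of that name among the 11712 gene symbols of the pigeon tables: FOXC2 (XM_005504868.2), FOXF2 (XM_005506717.1), FOXP1 (XM_013371351.1) and FOXP2 (XM_013367137.1). Each of these 4 was 1 deposited feature, among 21379. FOXC1, FOXD1 and FOXP4 were not analysed here. RNA had been sequenced from whole limb buds of domestic pigeon (Columba livia) embryos in 72 libraries, forming 18 groups of 4. The groups crossed the forelimb (FL) or hindlimb (HL) bud with Hamburger-Hamilton stage HH21 (embryonic day 3.5), HH25 (4.5) or HH29 (6), and with the phenotypes scale, grouse and muff. Scale stands for scaled feet, whereas the labels grouse and muff denote feathered feet. No breed, parent or embryo sex was given in the sources used here. The labels number the libraries 1 to 4 in each group without saying that they came from separate embryos. A p-value thus measures the spread between these samples, which may be in part technical. In scale forelimb at HH21 the mean log2 level of Z-linked genes ran from -0.44 to 0.25 around the mean of all libraries. What that spread reflects was not tested.

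Forkhead proteins are transcription factors that bind DNA through a shared winged-helix domain. FOXC and FOXF proteins act mainly in mesoderm and mesenchyme: in mouse, Foxc2 is known for skeletal, somite and lymphatic development, and Foxf2 for the mesenchyme of the palate and gut, where it acts downstream of hedgehog signalling. FOXP proteins are mostly repressors that pair with one another through a leucine zipper and recruit corepressors. FOXP1 is known in mouse cartilage and in the motor neurons that innervate the limb, and FOXP2 is known for vocal learning in songbirds and speech in humans.

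The libraries held between 10438537 and 16378164 counts each, with a median of 12915094.5. The genes that distinguish the limbs matched the labels at each stage: the median of TBX5, the forelimb factor, was 178, 294 and 310 CPM (counts scaled to a common library size) in forelimb against 0.260, 1.52 and 4.23 in hindlimb at HH21, HH25 and HH29. The highest hindlimb libraries reached 4.57, 29.1 and 65.8 CPM, and in the authors' deposited table TBX5 was higher in muff than in scale hindlimb by 0.87, 2.55 and 2.40 on the log2 scale. TBX4, the hindlimb factor, had medians of 137, 159 and 185 CPM in hindlimb against 0.695, 2.55 and 1.82 in forelimb. PITX1, which acts upstream of TBX4, had medians of 155, 229 and 256 CPM in hindlimb against 1.38, 5.32 and 7.18 in forelimb. In each fit a gene was called at an adjusted p under 0.05 in edgeR's quasi-likelihood test with Benjamini-Hochberg adjustment over all genes tested. Libraries numbered 1 and 2 differed from those numbered 3 and 4 in 37.4% of genes at HH21, 53.9% at HH25 and 2.64% at HH29. For numbers 3 and 4 over 1 and 2, FOXC2 was -0.43 (log2) at HH21 and 0.34 at HH25 (adjusted p = 0.0295 and 0.00073). FOXP1 was 0.17 and -0.30 (adjusted p = 0.0113 and 1.23e-07), and FOXP2 was 0.27 at HH21 (adjusted p = 0.0345). FOXP2 at HH25, FOXF2 at every stage and all these genes at HH29 were not called. The labels do not say what that split is, so values within each pair of numbers (1 and 2, then 3 and 4) are given beside the limb differences over the 3 phenotypes and beside the called stage changes.

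The 4 genes were measured at very different depths. FOXP1 had between 1057 and 3247 counts in a library and FOXP2 between 142 and 639, whereas FOXC2 had between 16 and 141 and FOXF2 between 1 and 46. Because the values are not per unit of length, levels were compared within each gene only. FOXC2 was lowest in muff hindlimb at HH21, at a mean of 1.80 ± 0.482 CPM (SD, n = 4), and highest in grouse hindlimb at HH29, at 8.63 ± 1.12 CPM, a span of 4.78-fold over the 18 groups. FOXF2 spanned 11.5-fold, from 0.256 ± 0.102 CPM in muff forelimb at HH21 to 2.96 ± 0.429 CPM in muff hindlimb at HH29. FOXP1 spanned 1.74-fold, from 108 ± 14.4 CPM in grouse forelimb at HH21 to 187 ± 14.2 CPM in scale hindlimb at HH29. FOXP2 spanned 2.01-fold, from 17.8 ± 3.56 CPM in muff hindlimb at HH21 to 35.7 ± 2.12 CPM in grouse hindlimb at HH29.

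Much of that order followed stage. The 6 lowest group means of FOXC2, FOXP1 and FOXP2 were the 6 groups of HH21, and for FOXF2 4 of the 6 lowest were. Of the 6 highest group means of each gene, 4 belonged to HH29. Hindlimb groups made up 5 of the 6 highest for FOXF2, 4 for FOXP1, 3 for FOXP2 and 1 for FOXC2. Most neighbours in these orders could not be separated: of the 17 gaps between successive group means, 1 exceeded the larger of both SDs for FOXF2, and none did for FOXC2, FOXP1 or FOXP2.

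**Figure D1:**
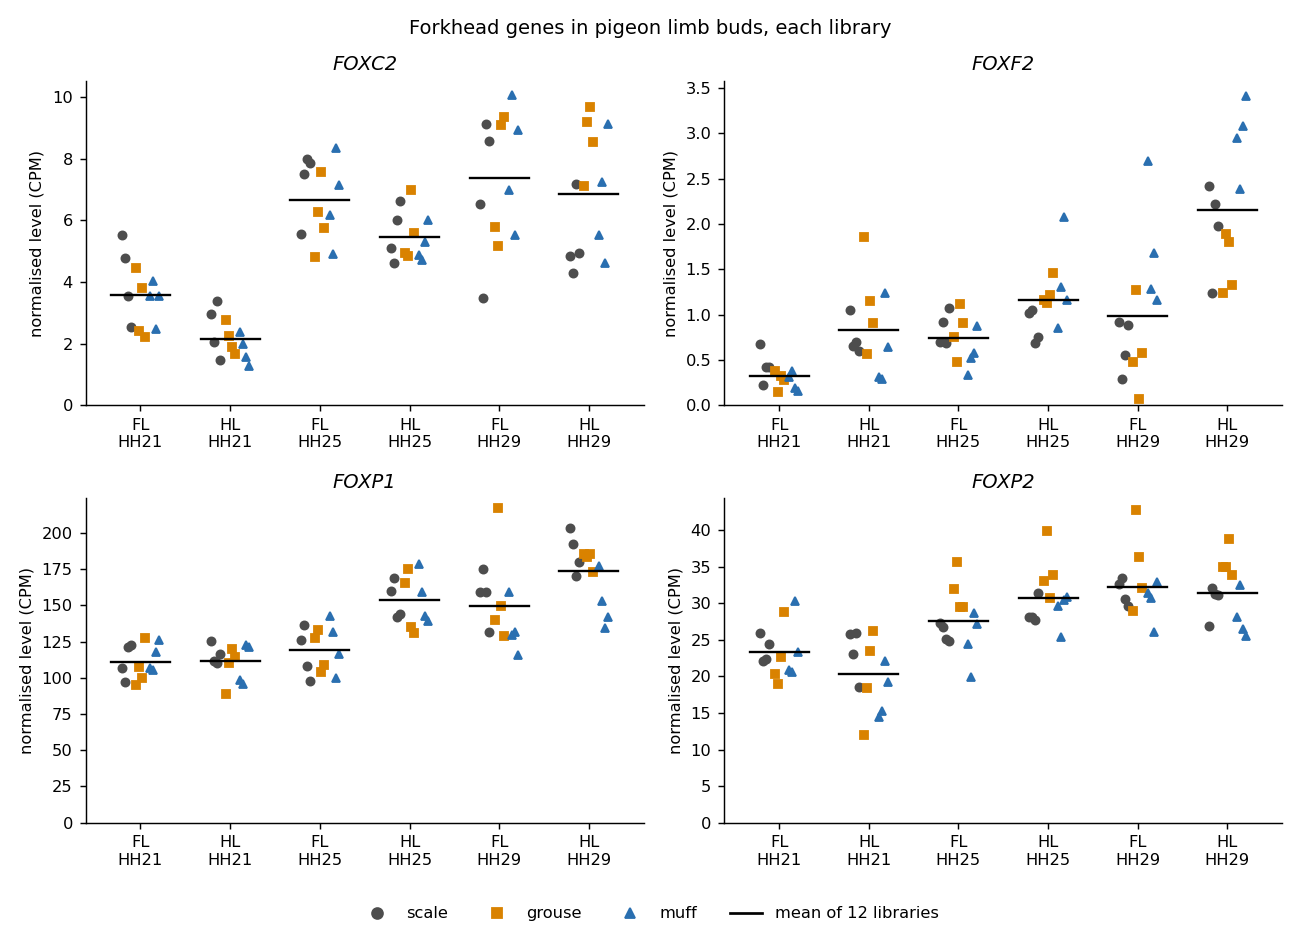
Levels of FOXC2, FOXF2, FOXP1 and FOXP2 in CPM in each of the 72 libraries, by stage, limb and phenotype. Lines give the mean of the 12 libraries of each limb and stage. FOXC2 was lowest at HH21, and FOXF2 hindlimb libraries sat above most forelimb libraries of the same stage.

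Between hindlimb and forelimb, FOXF2 was higher in hindlimb at all 3 stages, FOXC2 was lower in hindlimb at HH21, and FOXP1 was higher in hindlimb at HH25. These were the calls of the unpaired fit, in which FOXP2 was called at none of the stages. With forelimb and hindlimb matched by replicate number and phenotype (the replicate block), FOXC2 and FOXP2 at HH25 and FOXP1 at HH29 were called as well, 8 of 12 tests in all. That fit called 14.8% of all genes at HH21, 26.9% at HH25 and 16.7% at HH29. Unpaired, 5 of the 12 tests of the 4 genes over the 3 phenotypes were called, 1 higher and 1 lower at HH21, 2 higher at HH25 and 1 higher at HH29. Among all genes tested, the unpaired fit called 6.26% at HH21, 8.34% at HH25 and 8.38% at HH29. The median log2 difference of the 4 genes was -0.11, 0.25 and 0.08 at the 3 stages, against 0.01, 0.00 and 0.00 over all genes. A bulk level of this kind cannot tell fewer cells of a type from less RNA per cell.

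FOXF2, a mesenchymal factor, had forelimb levels at HH21 with a lowest value of 0.143, a median of 0.315 and a highest value of 0.681 CPM, from 2 to 9 counts a library, over the 12 libraries. In hindlimb the lowest, median and highest values were 0.295, 0.675 and 1.85 CPM, from 4 to 22 counts. In hindlimb 6 of the 12 libraries were above every forelimb library, and the 2 groups overlapped. The difference was 1.31 on the log2 scale (SE 0.28, 2.48-fold, adjusted p = 0.00313), and hindlimb was higher in 11 of 12 pairs of the same number and phenotype. With at most 9 counts a library in forelimb, FOXF2 passed the filter on low counts through its hindlimb libraries. Without that filter the log2 difference was 1.31 (adjusted p = 0.00331). Within numbers 1 and 2 the log2 difference was 1.05 (adjusted p = 0.298), and within numbers 3 and 4 it was 1.55 (adjusted p = 0.0184). Without replicate 3 of each group the adjusted p was 0.0685; over the 13 alternatives it ranged from 0.00153 to 0.298.

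At HH25 the FOXF2 forelimb libraries ran from 0.334 through a median of 0.727 to 1.12 CPM, and the hindlimb libraries from 0.686 through 1.15 to 2.08 CPM. Of the 12 hindlimb libraries, 7 were above every forelimb library, and the limbs overlapped. The log2 difference of 0.61 (SE 0.19, 1.53-fold, adjusted p = 0.0499) lay at the threshold and was called in 4 of 13 alternatives, with adjusted p from 0.0173 to 0.419. Leaving out any 1 of the replicate numbers ended the call, with adjusted p of 0.218, 0.244, 0.142 and 0.0631 without numbers 1, 2, 3 and 4. Within numbers 1 and 2 the difference was 0.82 (adjusted p = 0.0759), and within 3 and 4 it was 0.45 (adjusted p = 0.419).

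At HH29 the forelimb values of FOXF2 had a lowest, median and highest of 0.0704, 0.906 and 2.69 CPM, and the hindlimb values 1.24, 2.10 and 3.41 CPM. The lowest forelimb library, from the grouse group, had 1 count. In hindlimb 3 libraries exceeded every forelimb library, and hindlimb was higher in 12 of 12 pairs. The log2 difference was 1.18 (SE 0.23, 2.26-fold, adjusted p = 0.00104). Within numbers 1 and 2 it was 0.89 (adjusted p = 0.356) and within numbers 3 and 4 it was 1.53 (adjusted p = 0.00541), in a range of 1.15e-05 to 0.356 over the 13 alternatives.

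FOXC2 showed the opposite direction at the earliest stage. At HH21 its forelimb libraries ran from 2.21 through a median of 3.54 to 5.52 CPM and its hindlimb libraries from 1.29 through 2.02 to 3.38 CPM. Of the 12 hindlimb libraries, 7 were below every forelimb library, and hindlimb was higher in 0 of 12 pairs. The log2 difference of hindlimb over forelimb was -0.75 (SE 0.17, adjusted p = 0.00485), 1.68-fold higher in forelimb. The difference was -0.78 within numbers 1 and 2 (adjusted p = 0.0608) and -0.71 within numbers 3 and 4 (adjusted p = 0.136). Without replicate 2 of each group the adjusted p was 0.0625, in a range of 0.000404 to 0.136 over the alternatives.

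At HH25 FOXC2 ran from 4.80 through 6.71 to 8.34 CPM in forelimb and from 4.63 through 5.19 to 6.98 CPM in hindlimb, with hindlimb higher in 1 of 12 pairs. The log2 difference of -0.29 (SE 0.10) was not called (adjusted p = 0.095), but it was called with the replicate block (-0.29, adjusted p = 0.00464, in a range of 0.00464 to 0.315). Within the pairs of numbers it was -0.28 (adjusted p = 0.259) and -0.29 (adjusted p = 0.162). By HH29 the limbs overlapped almost fully, at 3.47, 7.77 and 10.1 CPM in forelimb and 4.30, 7.14 and 9.69 CPM in hindlimb for the lowest, median and highest library. That log2 difference was -0.12 (SE 0.16, adjusted p = 0.808), with 0.01 and -0.21 within the pairs of numbers, neither called.

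**Figure D2:**
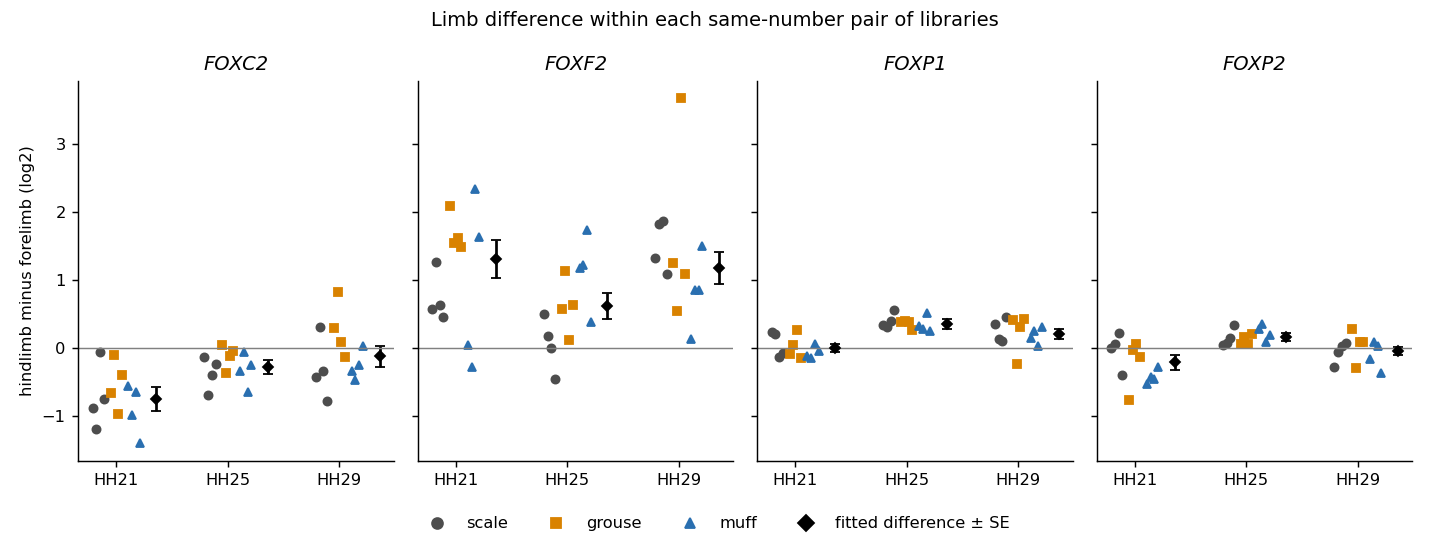
Hindlimb minus forelimb difference in log2 CPM for each pair of libraries with the same replicate number and phenotype, by stage, for the 4 genes. FOXF2 pairs lay above 0 in 11, 11 and 12 of 12 pairs at HH21, HH25 and HH29, FOXC2 pairs in 0, 1 and 5, FOXP1 pairs in 5, 12 and 11, and FOXP2 pairs in 3, 12 and 7.

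FOXP1, a repressor of the FOXP subfamily, did not separate the limbs at HH21, where forelimb libraries ran from 95.0 through 107 to 128 CPM and hindlimb libraries from 89.0 through 113 to 125 CPM (log2 difference -0.01, adjusted p = 0.986; 0.01 and -0.03 within the pairs of numbers, neither called). At HH25 the forelimb values were 98.0, 122 and 143 CPM and the hindlimb values 131, 152 and 179 CPM for the lowest, median and highest library. In hindlimb 8 of 12 libraries were above every forelimb library, and all 12 pairs were higher in hindlimb. The log2 difference was 0.35 (SE 0.07, 1.28-fold, adjusted p = 0.000878) and was called under all 13 alternatives. It was 0.33 within numbers 1 and 2 (adjusted p = 0.000394) and 0.38 within numbers 3 and 4 (adjusted p = 0.00024), with a range of 6.37e-10 to 0.00868 over the alternatives.

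At HH29 FOXP1 ran from 116 through 145 to 218 CPM in forelimb and from 135 through 179 to 203 CPM in hindlimb, so no hindlimb library was above every forelimb library. The log2 difference of 0.21 (SE 0.07) was not called (adjusted p = 0.0866), although 11 of 12 pairs were higher in hindlimb and the replicate block called it (0.22, adjusted p = 0.00549, in a range of 0.00549 to 0.721). It was called within numbers 3 and 4 (0.26, adjusted p = 0.0284) and not within numbers 1 and 2 (0.16, adjusted p = 0.721). The highest forelimb value belonged to grouse forelimb replicate 2, at 217.6 CPM against 128.9 to 149.3 CPM in the other 3 libraries of that group. In a fit chosen after seeing the data that left this library out, the log2 difference was 0.26 (adjusted p = 0.00377). That library also had the highest summed endothelium markers of its group, 516 CPM against 338, 356 and 314, and the highest summed markers of trunk and kidney tissue, 76.1 CPM against 39.2, 45.2 and 43.2. Its summed cartilage and perichondrium markers were also the highest, 1942 CPM against 1145, 1458 and 1590, and its muscle lineage markers the lowest, 104 CPM against 137, 146 and 163. Grouse hindlimb replicate 2 at HH29 also had the highest endothelium sum of its group, 477 CPM against 403, 397 and 398. Its trunk and kidney sum was 124 CPM against 86.3, 87.3 and 91.2, and its muscle lineage sum 142 CPM against 164, 163 and 159. Its cartilage and perichondrium sum of 1631 CPM was not the highest, and its FOXP1 was 184 CPM in a group from 173 to 186. The part of those tissues in the FOXP1 value was not tested.

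FOXP2, the other FOXP member measured, had overlapping limbs at each stage. At HH21 its forelimb libraries ran from 18.96 through 22.5 to 30.3 CPM and its hindlimb libraries from 12.0 through 20.7 to 26.2 CPM, with 5 hindlimb libraries below every forelimb library (log2 difference -0.21, SE 0.11, adjusted p = 0.388; -0.29 and -0.17 within the pairs of numbers, neither called). At HH25 the values were 19.99, 27.2 and 35.6 CPM in forelimb and 25.4, 30.6 and 39.9 CPM in hindlimb. All 12 pairs were then higher in hindlimb, by 0.15 on the log2 scale (SE 0.06). This was not called in the unpaired fit (adjusted p = 0.119) and was called with the replicate block (0.15, adjusted p = 0.00225, in a range of 0.00225 to 0.49). Within the pairs of numbers it was 0.15 (adjusted p = 0.378) and 0.16 (adjusted p = 0.114). At HH29 the values were 26.0, 31.7 and 42.8 CPM in forelimb and 25.5, 31.6 and 38.7 CPM in hindlimb (log2 difference -0.05, adjusted p = 0.825; -0.08 and -0.02 within the pairs of numbers, neither called). With the replicate block, 14.8, 26.9 and 16.7% of all genes were called between limbs at the 3 stages.

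Marker genes of other cell types were called between the limb samples in part. Of all genes, 6.26%, 8.34% and 8.38% were called at HH21, HH25 and HH29. With lists this short, a single called gene does not set a list apart from those shares. Of 4 measured genes listed for trunk and kidney tissue beside the limb, 2 of 3 tested were higher in hindlimb at HH21, 2 of 4 at HH25 with 1 lower, and 3 of 4 at HH29. The other gene tested at HH21 had a log2 difference below 0 and was not called. WT1, a kidney and body-cavity factor, was 1.47 higher on the log2 scale in hindlimb at HH21, and OSR1, a factor of early kidney mesoderm, was 0.41 higher. Summed over the 4 measured genes, this list ran from 10.2 to 32.9 CPM in forelimb and 15.5 to 36.2 in hindlimb at HH21. The sum ran from 31.6 to 55.8 CPM in forelimb and from 49.4 to 78.2 CPM in hindlimb at HH25. At HH29 it ran from 39.2 to 76.1 and from 86.3 to 124 CPM, with no gene of the list at 0 in these groups. The endothelium list of 7 had 0, 1 and 2 genes higher in hindlimb at the 3 stages, summing to between 252 and 330 CPM in forelimb and between 233 and 321 CPM in hindlimb at HH21, 291 to 357 and 330 to 381 CPM at HH25, and 313 to 516 and 361 to 477 CPM at HH29. Of 8 cartilage and perichondrium genes, 2 of 7 tested were lower in hindlimb at HH21, among them RUNX2 (-1.20) and SOX9 (-0.41), 2 of 8 at HH25 and 1 of 8 at HH29. Muscle lineage genes had 2 of 6 lower at HH21 (PAX7 by -0.97 and PAX3 by -0.32 on the log2 scale), 2 of 7 higher at HH25, and 1 higher and 1 lower at HH29. Neural crest and Schwann genes had 1 of 2 lower at HH21, 1 lower at HH25 and 0 called at HH29; the ectoderm list had 1 of 4 lower at HH29 only, the neuron list 1 of 2 higher at HH25 only, and the single red blood cell gene present was not called. Bulk samples cannot tell whether the trunk and kidney list was read in that tissue or in the limb bud itself. The part of the listed tissues in the limb differences of FOXF2, FOXC2 and FOXP1 was not tested.

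Within single phenotypes, with 4 libraries against 4, 0 of 33 limb tests of the 4 genes were called by edgeR and 1 by DESeq2. An unadjusted p under 0.05 was reached by 11 of the 33, against 8777 of 111005 tests over all genes. FOXF2 at HH21 fell below the filter on low counts in the 3 phenotypes. In grouse at HH21 it was 0.378, 0.143, 0.323 and 0.277 CPM in forelimb and 1.85, 0.564, 1.15 and 0.914 CPM in hindlimb, without overlap, as for 4.31% of genes tested in that comparison. That difference was tested under 4 alternatives: it was 1.94 on the log2 scale and called with all 24 libraries of the stage in the fit (adjusted p = 0.0495), and not called in the other 3, in a range of 0.0495 to 0.382. In muff and scale it was tested under 2 alternatives and not called (1.25 and 0.76 without the filter). In scale, grouse and muff, the share of all genes called was 1.22%, 0.507% and 0.97% (HH21), 0.942%, 1.41% and 1.19% (HH25) and 1.85%, 1.01% and 0.669% (HH29). With the replicate block 10 of the tests of the 4 genes were called, where the share of all genes was 11.2%, 1.33% and 5.25% (HH21), 11.2%, 11.2% and 8.32% (HH25) and 12%, 1.31% and 8.77% (HH29). Those 10 calls were FOXP1 in all 3 phenotypes at HH25 and in scale and muff at HH29, FOXF2 in muff at HH25 and in scale and muff at HH29, FOXC2 in scale and FOXP2 in muff at HH21. Within numbers 1 and 2 the one call was FOXP1 in grouse at HH25 (0.37, adjusted p = 0.016, in a range of 3.3e-06 to 0.814), and within numbers 3 and 4 it was FOXP1 in scale at HH25 (0.47, adjusted p = 0.0231, in a range of 4.72e-05 to 0.856). The DESeq2 call was FOXF2 in scale at HH29 (adjusted p = 0.019, in a range of 0.000616 to 1 over 14 alternatives). The authors' deposited table had the same call, with forelimb below hindlimb at a log2 difference of -0.64 (adjusted p = 0.0202). Deposited log2 differences came from the authors' own fit, so their sizes were not compared with those fitted here.

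FOXF2 in scale at HH29 was 0.924, 0.296, 0.553 and 0.888 CPM in the 4 forelimb libraries and 2.42, 1.24, 2.22 and 1.98 CPM in the 4 hindlimb libraries. The groups did not overlap, as for 6.05% of genes in that comparison, and the log2 difference was 1.55 (SE 0.36, adjusted p = 0.063). The corresponding log2 difference was 1.34 in grouse (adjusted p = 0.451) and 0.79 in muff (adjusted p = 0.463). At HH25 it was 0.05 in scale, 0.59 in grouse and 1.20 in muff, none called.

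FOXP1 at HH25 was 126, 137, 108 and 98.0 CPM in scale forelimb and 160, 169, 142 and 144 CPM in scale hindlimb. Those groups did not overlap, as for 5.27% of genes, and the same held for FOXP2 in scale at HH25. The log2 difference of FOXP1 was 0.38 in scale, 0.34 in grouse and 0.33 in muff, close in size and none called in the unpaired fits (adjusted p = 0.218, 0.321 and 0.441). In the authors' deposited table the scale comparison was called, with forelimb below hindlimb at a log2 difference of -0.38 (adjusted p = 1.14e-09). In grouse at HH29 the FOXP1 difference was 0.19 with all libraries (adjusted p = 0.817). Each library was left out in turn, and it was called when forelimb replicate 2 was left out (0.38, adjusted p = 0.0166). That leave-out is given because of its result, and it removes the highest forelimb library.

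FOXC2 in muff at HH21 was 3.54, 4.04, 2.48 and 3.54 CPM in forelimb and 2.38, 1.99, 1.55 and 1.29 CPM in hindlimb, without overlap, as for 6.46% of genes. The log2 difference was -0.91 in muff, -0.73 in scale and -0.61 in grouse, all in one direction and none called (adjusted p = 0.196, 0.476 and 0.935). Whether the limb difference itself varied by phenotype was tested against scale at each stage: 0 of 23 tests were called by edgeR and 0 by DESeq2, with 1 at an unadjusted p under 0.05, FOXF2 in muff at HH25 (1.15 on the log2 scale, adjusted p = 1). Of all genes, 0.00812% were called for muff at HH21, 0.00794% at HH25 and 0.0155% at HH29, and 0% for grouse at each stage. An unadjusted p under 0.05 was reached by 1101 of 75620 of these tests over all genes.

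Successive stages were compared within each limb. From HH21 to HH25 and from HH25 to HH29, all 16 fitted log2 changes of the 4 genes were above 0 and 10 of 16 were called, all higher at the later stage. Of all genes, 53.1% and 46.6% were called in forelimb and 53.4% and 48.3% in hindlimb, with 30.1%, 22.6%, 27.5% and 24.9% called higher. The median log2 change of the 4 genes was 0.60 and 0.27 in forelimb and 0.54 and 0.25 in hindlimb, against 0.05, -0.01, 0.01 and 0.00 for all genes. The labels give 12 libraries to a sequencing lane but not which, so stage and lane cannot be told apart.

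FOXC2 had the widest change from HH21 to HH25 of the 4 genes in hindlimb. Its 12 hindlimb libraries ran from 1.29 to 3.38 CPM at HH21 and from 4.63 to 6.98 CPM at HH25, without overlap, as for 7.51% of genes. The log2 change was 1.36 (SE 0.15, 2.57-fold, adjusted p = 1.38e-09), and it was 1.01 within numbers 1 and 2 (adjusted p = 0.00016) and 1.70 within numbers 3 and 4 (adjusted p = 4.32e-06). In forelimb the change was 0.93 (SE 0.16, adjusted p = 8.89e-06), with 0.51 (adjusted p = 0.0931) and 1.31 (adjusted p = 2.02e-06) within the pairs of numbers, in a range of 9.49e-08 to 0.0931. From HH25 to HH29 FOXC2 was not called in forelimb (0.14, adjusted p = 0.481) or hindlimb (0.31, adjusted p = 0.0588).

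FOXP1 and FOXP2 both rose from HH21 to HH25 in hindlimb. The FOXP1 hindlimb libraries reached at most 125 CPM at HH21 and were at least 131 CPM at HH25, a log2 change of 0.47 (SE 0.06, adjusted p = 8.42e-08), with 0.68 (adjusted p = 1.85e-06) and 0.24 (adjusted p = 0.00428) within the pairs of numbers. FOXP2 had 11 of 12 HH25 hindlimb libraries above every HH21 library and changed by 0.60 (SE 0.09, adjusted p = 1.31e-06), with 0.76 (adjusted p = 0.000617) and 0.45 (adjusted p = 0.000186). In forelimb FOXP1 did not pass at that step (0.14, adjusted p = 0.122), and its change was 0.36 within numbers 1 and 2 but -0.16 within numbers 3 and 4. FOXP2 rose in forelimb by 0.27 (SE 0.08, adjusted p = 0.00415), with 0.35 (adjusted p = 0.0354) and 0.13 (adjusted p = 0.198) within the pairs of numbers; without replicate 1 the adjusted p was 0.0668, in a range of 0.00419 to 0.198.

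From HH25 to HH29 FOXP1 rose in forelimb by 0.32 (SE 0.08, adjusted p = 0.000876) and was called under all 13 alternatives, with 0.30 (adjusted p = 0.0231) and 0.36 (adjusted p = 0.000827) within the pairs of numbers. In hindlimb it rose by 0.18 (SE 0.06, adjusted p = 0.0197), with 0.13 (adjusted p = 0.187) and 0.23 (adjusted p = 0.00891). Without replicate 3 or 4 the hindlimb call was lost, at adjusted p of 0.0535 and 0.103, in a range of 0.00891 to 0.187. FOXP2 rose in forelimb by 0.22 (SE 0.08, adjusted p = 0.0171) but not in hindlimb (0.03, adjusted p = 0.83). The forelimb change was 0.29 (adjusted p = 0.068) and 0.19 (adjusted p = 0.0871) within the pairs of numbers, and without replicate 2 or 4 the adjusted p was 0.0767 and 0.0635, in a range of 0.0076 to 0.0871.

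FOXF2 rose in forelimb from HH21 to HH25 by 1.24 (SE 0.35, adjusted p = 0.00285) and in hindlimb from HH25 to HH29 by 0.90 (SE 0.21, 1.87-fold, adjusted p = 0.000516). Forelimb libraries at HH21 held at most 9 counts. Without the filter on low counts the forelimb change was 1.21 (adjusted p = 0.00371). Within the pairs of numbers the forelimb change was 0.82 (adjusted p = 0.238) and 1.58 (adjusted p = 0.00712), and without replicate 4 the adjusted p was 0.066, in a range of 0.00164 to 0.238. The hindlimb change was 0.90 (adjusted p = 0.0461) and 0.92 (adjusted p = 0.00529) and was called under all 13 alternatives. The other 2 steps were not called, at 0.34 in forelimb from HH25 to HH29 (adjusted p = 0.365; 0.83 and -0.12 within the pairs of numbers) and 0.47 in hindlimb from HH21 to HH25 (adjusted p = 0.0889).

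**Figure D3:**
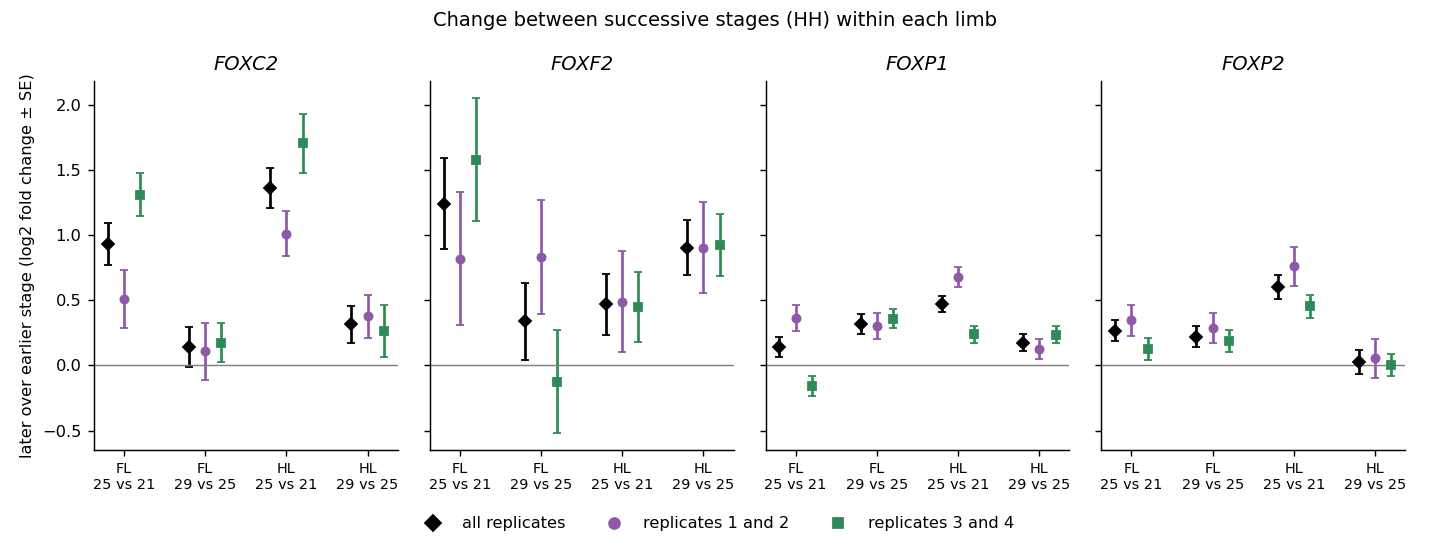
Log2 fold change (± SE) of the 4 genes between successive stages in forelimb and hindlimb. Points give the fit of all replicates, of replicates 1 and 2 alone, and of replicates 3 and 4 alone. With all replicates every change lay above 0. With replicates 3 and 4 alone, forelimb FOXP1 from HH21 to HH25 (-0.16) and forelimb FOXF2 from HH25 to HH29 (-0.12) lay below 0.

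Cartilage genes rose over the same steps: 8 of 8 in each limb from HH21 to HH25, where 30.1% and 27.5% of all genes rose. From HH25 to HH29, 5 of 8 were higher and 1 lower in forelimb and 5 of 8 higher in hindlimb. At that step 22.6% and 24.9% of all genes rose. Of 7 endothelium genes, 2 and then 5 rose in forelimb and 4 and then 6 in hindlimb. The part of these tissues in the changes of the 4 genes was not tested. Of 8 genes for corepressors with which FOXP proteins act, 3 were higher and 2 lower in forelimb and 2 higher and 2 lower in hindlimb from HH21 to HH25, near the shares of all genes called (53.1% and 53.4%). From HH25 to HH29, 1 was higher and 5 lower in forelimb and 6 were lower in hindlimb, with list medians of -0.18 and -0.21. Of all genes, 46.6% and 48.3% were called at that step, with 24% and 23.4% called lower. Between limbs 0 of these 8 were called at HH21, and at HH25 and HH29 the call was CTBP2, lower in hindlimb by 0.26 and 0.33 on the log2 scale. Of 3 measured hedgehog targets, 0 were called between limbs by edgeR, and 1 rose at each step in each limb: HHIP, a secreted hedgehog antagonist, changed by 1.21 and 1.66 on the log2 scale in forelimb and by 0.58 and 1.69 in hindlimb.

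Whether the limb difference changed between HH21 and HH29 was tested directly. By edgeR 0 of the 4 genes were called (with 2 at an unadjusted p under 0.05, and 0 by DESeq2), against 5.88% of all genes. Of all 13216 genes tested, 2040 had an unadjusted p under 0.05. FOXC2 moved by 0.62 on the log2 scale toward hindlimb (SE 0.21, adjusted p = 0.0747). With the replicate block, which called 17% of genes, it was called (0.63, adjusted p = 0.00298, in a range of 0.00298 to 0.466), and it was not called within numbers 1 and 2 (0.77) or 3 and 4 (0.49). FOXP1 moved by 0.21 (SE 0.10, adjusted p = 0.277) and was called with the block (0.22, adjusted p = 0.00874, in a range of 0.00874 to 0.731) and within numbers 3 and 4 (0.27, adjusted p = 0.0491). FOXF2 (-0.14, adjusted p = 0.953) and FOXP2 (0.16, adjusted p = 0.592) were not called by either fit.

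Between phenotypes, no difference of the 4 genes was called by edgeR in either limb in the main fits. Those fits used all libraries of the groups compared and no others. In hindlimb 0 of 35 tests passed in edgeR and 2 were called by DESeq2. At an unadjusted p under 0.05 were 10 of the 35, against 15930 of 110844 tests over all genes. In forelimb 0 of 30 passed in edgeR and 0 were called by DESeq2. There 4 of the 30 had an unadjusted p under 0.05, against 14254 of 111095 tests over all genes. Within either pair of numbers 0 of the phenotype tests of the 4 genes were called by edgeR. Of all genes, the shares called in hindlimb for grouse over scale, muff over scale and muff over grouse were 0%, 0.317% and 0.117% (HH21), 0.146%, 0.339% and 0.602% (HH25) and 0.326%, 0.3% and 2.94% (HH29). In forelimb they were 0.0996%, 0.0997% and 0.921% (HH21), 0.186%, 0.129% and 0.651% (HH25) and 0.0317%, 0.742% and 1.06% (HH29). The values nearest to a call were those at HH29.

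FOXF2 in hindlimb at HH29 was 2.42, 1.24, 2.22 and 1.98 CPM in scale, 1.24, 1.89, 1.80 and 1.32 CPM in grouse, and 2.95, 2.38, 3.09 and 3.41 CPM in muff. Every muff library was above every grouse library, and 1 muff library was below 1 scale library. Muff exceeded grouse by 0.93 on the log2 scale (SE 0.23, adjusted p = 0.0536), in a comparison where 12.8% of genes did not overlap. DESeq2 gave an adjusted p of 0.035, in a range of 0.035 to 0.527 over 14 alternatives. In the authors' deposited table the same comparison had a log2 difference of 0.50 (adjusted p = 0.0746).

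FOXF2 in forelimb at HH29 was also highest in muff, at 2.69, 1.29, 1.68 and 1.16 CPM, against 0.924, 0.296, 0.553 and 0.888 CPM in scale and 0.477, 1.27, 0.0704 and 0.580 CPM in grouse. Muff and scale did not overlap, as for 13.6% of genes, and differed by 1.36 (SE 0.40, adjusted p = 0.1). Muff and grouse differed by 1.48 (adjusted p = 0.184). That difference was called in the fit of all 24 libraries of the stage (adjusted p = 0.0311, in a range of 0.0311 to 0.657 over 13 alternatives). Each library was also left out in turn, and it was called when grouse forelimb replicate 2 was left out (2.20, adjusted p = 0.0438). That leave-out is given because of its result, and it removes the highest grouse library.

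FOXP2 in hindlimb at HH29 was 26.8, 32.1, 31.2 and 31.1 CPM in scale, 35.0, 35.0, 38.7 and 33.9 CPM in grouse, and 28.1, 32.5, 26.5 and 25.5 CPM in muff. Every grouse library was above every scale and muff library. Muff was below grouse by -0.33 on the log2 scale (SE 0.10, adjusted p = 0.0834), where 12.8% of genes did not overlap. Grouse was above scale by 0.24 (adjusted p = 0.376), where 6.53% of genes did not overlap. DESeq2 called the first of these (adjusted p = 0.0369, in a range of 0.0369 to 0.632), and in the authors' deposited table it had a log2 difference of -0.34 (adjusted p = 0.0213). In forelimb at HH25 FOXP2 was also highest in grouse, at 31.9, 35.6, 29.5 and 29.5 CPM against 27.3, 26.7, 25.1 and 24.9 CPM in scale and 24.4, 19.99, 28.6 and 27.1 CPM in muff. Grouse did not overlap scale, as for 5.89% of genes (0.28, adjusted p = 0.308), or muff, as for 7.14% of genes (-0.33 for muff over grouse, adjusted p = 0.337). Relative to all libraries, the mean log2 CPM of Z-linked genes in these groups ran from 0.28 to 0.41 in scale. It ran from -0.38 to 0.25 in grouse and from -0.37 to 0.39 in muff. The 14 alternatives included the level of Z-linked genes as a covariate. Over them grouse over scale ran from 0.23 to 0.30 and muff over grouse from -0.60 to -0.09, with 0 called. Embryo sex was not given, and its part in these differences was not tested.

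FOXP1 in hindlimb at HH29 was 203, 192, 171 and 180 CPM in scale, 186, 184, 185 and 173 CPM in grouse, and 177, 153, 135 and 142 CPM in muff. The muff values were the lowest, with replicate 1 overlapping both other groups. Muff differed from scale by -0.29 (adjusted p = 0.17) and from grouse by -0.25 (adjusted p = 0.137). Each library was left out in turn, and the second difference was called when muff replicate 1 was left out (-0.34, adjusted p = 0.048). That leave-out is given because of its result, and it removes the highest muff library. FOXC2 in hindlimb at HH29 was 4.83, 4.30, 7.18 and 4.95 CPM in scale, 7.10, 9.19, 9.69 and 8.56 CPM in grouse, and 5.51, 7.23, 4.63 and 9.12 CPM in muff. Grouse exceeded scale by 0.70 (SE 0.19, adjusted p = 0.174), with 1 scale library reaching into the grouse range.

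**Figure D4:**
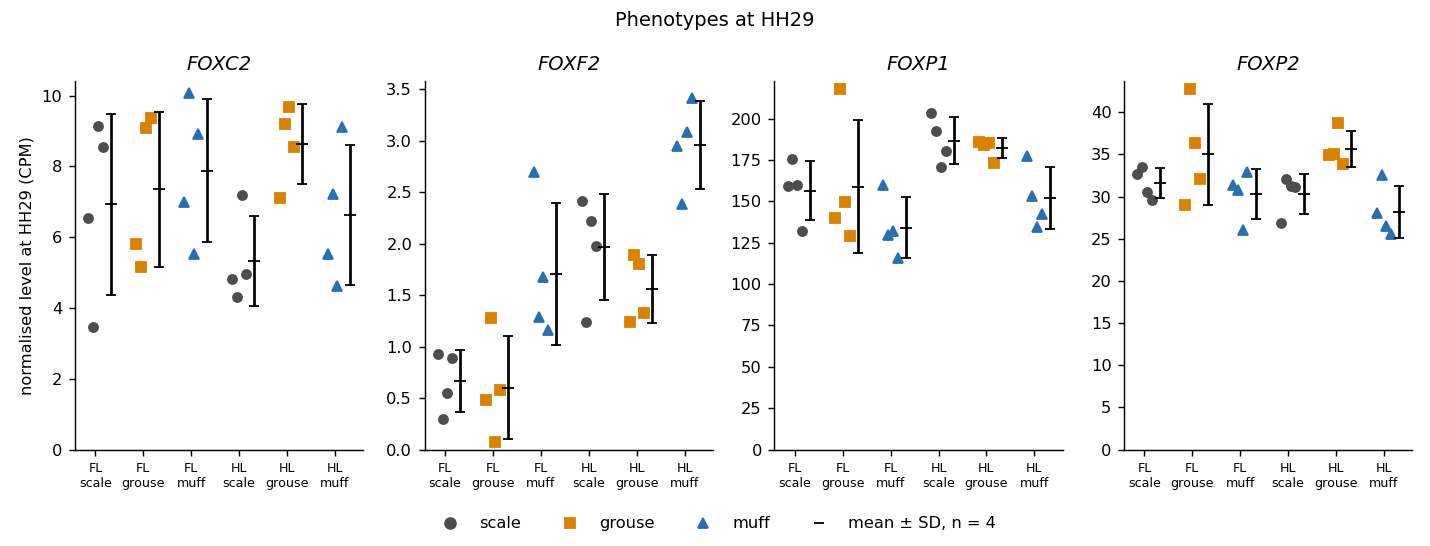
Levels of the 4 genes at HH29 in CPM by phenotype in forelimb and hindlimb, with 4 libraries in each group and the group mean. FOXF2 was highest in muff in both limbs and FOXP2 highest in grouse hindlimb. No difference was called by edgeR in the main fits, which used all libraries of the groups compared and no others.

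Over the 18 group means of log2 CPM, the 4 genes were described by their likeness to one another and to 10742 named genes. These points share libraries, depth and stage. FOXC2 and FOXP2 had a Pearson r of 0.87, FOXP1 and FOXP2 0.79, FOXC2 and FOXP1 0.65, FOXF2 and FOXP1 0.61, FOXF2 and FOXP2 0.41, and FOXC2 and FOXF2 0.40. The genes most like FOXC2 were PDPN (0.97), CACNG5 (0.96) and GALNT5 (0.96), and the least like it was EIF4G2 (-0.96). FOXF2 was most like CCBE1 (0.91), EBF4 (0.90) and WDFY2 (0.90) and least like LRRC8D (-0.90). FOXP1 was most like CDH11 (0.95), CNTN5 (0.94) and BMP5 (0.93) and least like FKBP5 (-0.92). FOXP2 was most like DMRT3 (0.93), SEC24A (0.93) and SYT9 (0.93) and least like IFT52 (-0.95).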

How the data were processed

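Messenger RNA of pigeon limb buds was measured in 72 libraries. Per the labels' protocols, libraries came from a stranded kit with oligo(dT) selection and were sequenced in 125-cycle paired-end runs. The authors deposited whole-number counts per feature; per the submitters' processing notes, FastQC, STAR, featureCounts and DESeq2 were used. The genome build and tool versions were not given in the sources used here. The authors' deposited table gave log2 fold changes and adjusted p-values.

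Features were summed per gene symbol (15899 rows). Counts were filtered with filterByExpr, scaled by TMM and tested with edgeR 4.0.16 (R 4.3.3, limma 3.58.1), without a replicate block, with Benjamini-Hochberg adjustment over all genes. Each SE was derived from that test, as the absolute log2 difference divided by the square root of its F statistic. CPM used TMM over the 72 libraries, and log2 CPM a prior count of 1. DESeq2 1.42.0 was an alternative. Figures used Python 3.11.15, pandas 2.3.3 and matplotlib 3.10.9. Fits were tested on simulated data, with large changes planted in better-counted genes and no pairing by number. That test did not cover counts as low as those of FOXF2, or changes as small as those of FOXP1 and FOXP2. Same-numbered forelimb and hindlimb libraries of a group deviated together (r 0.197 to 0.653, over 0.1 in 36 of 36 pairs), so numbers pair the limbs. Named were the members present, the 3 most and 1 least alike genes each, and list examples. Other forkhead genes were named where called between limbs or in all 4 stage steps. FOXN1, called in 3 stage steps, was not described. Members and lists were chosen with earlier results of these data known. Low-count genes such as FOXF2 are limited by depth.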

Additional observations from a re-analysis of the deposited data

Results flagged for a closer look

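Among 72 groups of 4 libraries, one for each of the 4 genes in each of the 18 groups, 2 held a library far from the other 3; chance gives about 1 in 20. FOXP1 in grouse hindlimb at HH29 was 173.126 CPM in replicate 4 against 183.795 to 185.878 CPM in the others. FOXP2 in scale hindlimb at HH25 was 31.4599 CPM in replicate 4 against 27.6791 to 28.1957 CPM in the others.

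In muff, FOXP2 was lower in hindlimb than in forelimb in 4 of 4 pairs at HH21, by a mean of -0.424418 in log2 CPM (from -0.531827 to -0.278071). At HH25 it was higher in 4 of 4 pairs, by a mean of 0.225555 (from 0.089226 to 0.346103). The difference between these stages was not tested.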

How the results depend on the processing

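The 15 called values of single genes had 195 values under other settings: 168 stayed on the same side of the threshold in the same direction, 27 lost the call and 0 reversed. Hindlimb against forelimb over the 3 phenotypes had 5 calls, 8 with the replicate block, 1 with replicates 1 and 2 alone, and 3 to 4 without 1 replicate number. With replicates 3 and 4 alone the calls were FOXF2 at HH21 and HH29 and FOXP1 at HH25 and HH29. With a term for the 2 pairs of numbers, edgeR also called FOXC2 at HH25 (adjusted p = 0.0108) and FOXP1 at HH29 (adjusted p = 0.0231). That fit called 13.2% and 9.01% of all genes at those stages. FOXF2 at HH25 lost its call with DESeq2, without the filter on low counts, or per feature. Within single phenotypes the count of 0 became 10 with the replicate block, 3 with a term for the 2 pairs of numbers, and 1 with replicates 1 and 2 alone, replicates 3 and 4 alone, the level of Z-linked genes as a covariate, DESeq2 or all 24 libraries of the stage in the fit, and 0 to 1 without 1 replicate number. In scale, grouse and muff the term for the pairs of numbers called 1.33%, 0.74% and 2.14% of all genes at HH21. It called 3.04%, 3.03% and 2.18% at HH25 and 2.41%, 1.11% and 0.582% at HH29. Between phenotypes the count of 0 became 2 with DESeq2 in hindlimb and 1 with all 24 libraries in forelimb. For the limb difference at HH29 against HH21 the count of 0 became 2 with the replicate block and 1 with replicates 3 and 4 alone. Between stages the 10 calls became 7 to 11, and 8 to 10 without 1 replicate number. The cause of these changes was not tested. The limb difference of grouse or muff against scale gave 0 calls by edgeR and DESeq2 under every setting run. Without grouse forelimb replicate 2 at HH29, a choice made after seeing the data, the counts were 6 between limbs, 10 between stages and 0 for the limb difference by stage. Where a fit used fewer libraries, its share of all genes called is not given here, so those counts compare settings only.

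Same-numbered libraries correlated over 0.1 in 36 of 36 pairs between limbs, in 36 of 72 between phenotypes and in 6 of 48 between stages. Limb pairs of different numbers did so in 11 of 108. A number was thus shared most clearly between limbs and in part between phenotypes. The block changed no other call between limbs than those given with the results. Low counts limit FOXF2 most: it had from 1 to 46 counts a library, and fell below the filter on low counts within single phenotypes at HH21.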

Other observations

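Of 23 other forkhead genes present, 10 to 12 were tested between limbs at each stage, where 6.26%, 8.34% and 8.38% of all genes were called. At HH21, 1 of 12 tested was higher in hindlimb and 1 lower; at HH25, 1 of 10 was higher; at HH29, 0 of 12 were called by edgeR. FOXF1, a mesenchymal factor and the paralog of FOXF2, was higher in hindlimb at HH21 by 2.75 on the log2 scale (SE 0.60, adjusted p = 0.00376), but on few reads. Its forelimb libraries held 0 to 4 counts, 4 of the 12 being at 0, and its hindlimb libraries 0 to 36 counts, with medians of 0.0842 and 0.341 CPM. FOXF1 thus passed the filter on low counts only through hindlimb libraries, where it was higher. Its adjusted p is therefore not taken as support for a limb difference. FOXS1 was lower in hindlimb at HH21 (-0.45, adjusted p = 0.031), and FOXN3, a checkpoint-linked repressor, was higher at HH25 (0.23, adjusted p = 0.0266).

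Between stages, 3 rose and 3 fell of 13 in forelimb and 4 rose and 3 fell of 14 in hindlimb from HH21 to HH25, and then 4 rose and 1 fell in each limb. In all genes 53.1% and 53.4% were called at the first step and 46.6% and 48.3% at the second. FOXM1, which drives cell division, fell in all 4 steps, by -0.49 and -0.35 on the log2 scale in forelimb and -0.55 and -0.51 in hindlimb. FOXO3, a factor of stress and growth arrest, rose in all 4, by 0.74 and 0.44 in forelimb and 0.67 and 0.35 in hindlimb.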
